A study of Sus scrofa with 40 samples.

Results

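H1FOO, the linker histone of oocytes, and 9 histone chaperones were followed in RNA sequencing of mature pig oocytes, which rest at metaphase II until a sperm enters. The genes were chosen by name, as a list proposed with results of these data already known, so their values are a description and not independent support for a pattern. Of the 10 listed genes, 9 (H1FOO, NASP, NPM1, NPM2, NPM3, ASF1A, ASF1B, CHAF1A and CHAF1B) had a row in both deposited tables, out of 38794 named rows in each. HIRA had no row under that name and was not analysed here. Per the labels the pigs (Sus scrofa) were hybrids of Large White, Duroc and Berkshire from commercial stock, and each library came from oocytes labelled mtDNA-deficient or mtDNA-normal, with no transgene, drug or other treatment given for either. There were 5 pools of deficient and 6 pools of normal oocytes, although the series' design text gives an n of 5 for each group, and 14 deficient and 15 normal single oocytes. RNA of the pools was extracted with the Arcturus Picopure kit and amplified with Nugen Ovation kits, whereas single oocytes were extracted in the tube and taken through the Nugen SoLo kit with pig-specific depletion primers. The age of the animals, the number of oocytes in a pool and the way in which the mtDNA state was established beyond a code in the titles are not stated in the labels. That code reads neg for deficient and pos for normal pools, and BCBneg and BCBpos for single oocytes. Nothing in the labels says that libraries came from separate animals, so the p-values below measure only the spread between these samples.

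Chromatin of the oocyte is packed with a linker histone of its own, H1FOO, in place of most somatic H1, and histones not yet on DNA are held by chaperones. NASP binds H1 and soluble H3-H4, and ASF1A and ASF1B pass H3-H4 either to HIRA, which places H3.3 outside replication, or to CAF-1, whose large subunits CHAF1A and CHAF1B place histones behind replication forks. The nucleoplasmin family comprises NPM2, the oocyte protein that opens sperm chromatin after fertilisation, NPM1, an abundant nucleolar protein, and NPM3, which pairs with other nucleoplasmins. A metaphase II oocyte makes almost no new transcripts, so its mRNA is a store laid down during growth.

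Pools held between 14480546 and 29538982 counts in named genes, and single oocytes between 706929 and 3067523. One row, LOC102158401, took 46.7% to 76.0% of the counts of a single oocyte but at most 0.0275% of those of a pool. Levels in counts per 1000000 counts (CPM) carry that share. By date and by library type, levels were also taken outside that row and RN18S, a ribosomal RNA row. Between mtDNA states the levels are in plain CPM only. Oocyte markers were present throughout: 12 of 15 reached a mean of 10 CPM in pools and 11 in single oocytes, GDF9 among them at 1653 ± 711 CPM (SD, n = 11) in pools. NOBOX, FIGLA and DDX4, which mark younger germ cells more than mature oocytes, stayed under that level in both. Of 15 measured markers of cumulus and granulosa cells, INHBA and VCAN reached it in pools and INHBA alone in single oocytes, and 4 were at 0 in every pool (AMH, FOXL2, INHA and LHCGR). The summed cumulus and granulosa level ran from 62.4 to 193 CPM in deficient pools and from 107 to 167 CPM in normal pools. In bulk samples, fewer cells of a type and less RNA per cell cannot be told apart.

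None of the 9 genes passed the test between mtDNA states in pools. By edgeR's quasi-likelihood test with Benjamini-Hochberg adjustment, 0 of 9 passed an adjusted p of 0.05, and 0 of 13540 tested genes did (0%). Before adjustment 726 genes had a p under 0.05, and DESeq2 called 28 genes, none of them a member. The median log2 difference, deficient minus normal, was 0.04 over the 9 genes and -0.0019 over all genes tested, and the adjusted p of the members ran from 0.922 to 0.989.

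**Figure D1:**
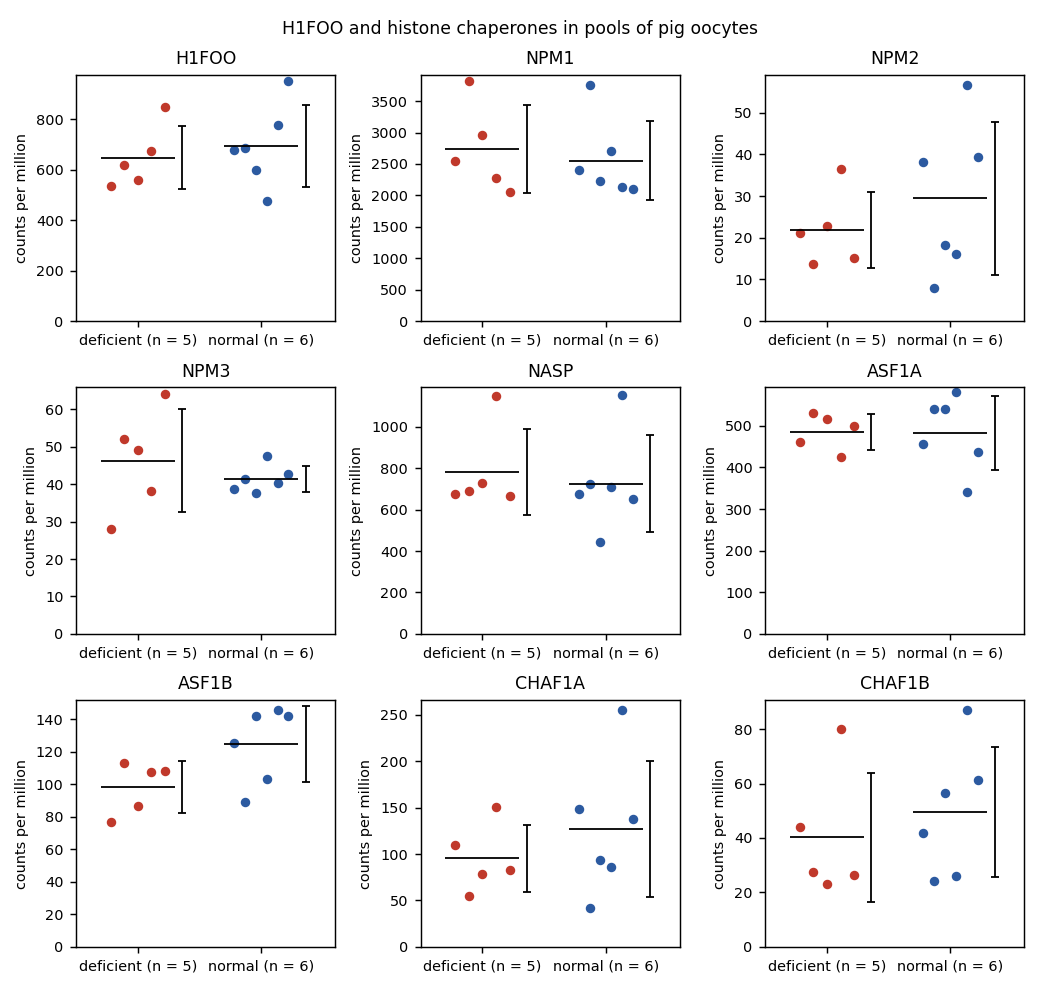
Level of each gene in every pool, in CPM on a linear axis from 0, for 5 deficient pools (red) and 6 normal pools (blue). Points are pools, horizontal lines are means and bars are 1 SD. The states overlap for all 9 genes, and pool B2 of each state is the highest of its state for NASP, CHAF1A and CHAF1B.

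H1FOO stood at 536, 618, 560, 676 and 848 CPM in deficient pools A1, A2, A3, B2 and B4. In normal pools A2, A3, A4, B1, B2 and B4 it stood at 677, 686, 600, 476, 779 and 954 CPM. Pool B4 was the highest of both states, and the range of the normal pools enclosed that of the deficient pools. The fitted log2 difference was 0.04 (SE 0.21, 95% interval -0.40 to 0.47, adjusted p = 0.989), and its sign turned in some of the alternative fits. NASP, which escorts both H1 and H3-H4, was between 442 and 727 CPM in 9 of the 11 pools and at 1149 and 1154 CPM in the pools titled B2, one of each state. Its log2 difference was 0.23 (SE 0.24, adjusted p = 0.922).

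Among nucleoplasmins, NPM2 had the widest scatter. It was at 21.1, 13.7, 22.8, 36.6 and 15.2 CPM in deficient pools A1, A2, A3, B2 and B4, and at 38.3, 8.02, 18.2, 16.1, 56.7 and 39.3 CPM in normal pools A2, A3, A4, B1, B2 and B4. The states overlapped, with both the lowest and the highest NPM2 level in normal pools. The log2 difference of NPM2 was -0.23 (SE 0.37, adjusted p = 0.949), and without normal pool B2 it was 0.01. NPM1 ranged from 2047 to 3829 CPM in deficient and from 2102 to 3752 CPM in normal pools, with A2 the highest deficient pool and A3 the highest normal one, and its log2 difference was 0.23 (SE 0.31). NPM1 has an overlapping gene, LOC102158455, in a RefSeq table of another build and may share reads with near-identical copies, so its counts are uncertain. NPM3 ranged from 28.1 to 64.1 CPM in deficient pools and more narrowly, from 37.7 to 47.5 CPM, in normal pools, with a log2 difference of 0.31 (SE 0.26).

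The genes of the H3-H4 route overlapped as well. ASF1A, which feeds both HIRA and CAF-1, stood at 486 ± 43.1 CPM (SD, n = 5) in deficient and 483 ± 88.3 CPM (SD, n = 6) in normal pools. It overlaps MCM9 in the same RefSeq table, and since the strand setting of the counting is not stated, reads of the pair cannot be told apart. Its paralogue ASF1B was at 76.5, 113, 86.7, 107 and 109 CPM in deficient pools A1, A2, A3, B2 and B4, and at 126, 89.4, 142, 103, 146 and 142 CPM in normal pools A2, A3, A4, B1, B2 and B4. Of the normal pools 4 lay above every deficient pool for ASF1B, yet the log2 difference of -0.16 (SE 0.19, 95% interval -0.56 to 0.24) did not pass. For the CAF-1 subunits the log2 differences were -0.24 (SE 0.30) for CHAF1A and -0.15 (SE 0.32) for CHAF1B. CHAF1A ranged from 54.6 to 150 CPM in deficient and from 41.8 to 255 CPM in normal pools, and CHAF1B from 22.99 to 80.0 and from 24.2 to 87.1 CPM.

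Levels of several members moved together from pool to pool. Over the logged CPM of 11 pools, 45 relations among the 9 genes and the number of genes detected were computed. The Pearson r of 11 and the Spearman rho of 6 passed 0.05 by permutation after Benjamini-Hochberg adjustment. The share of all gene pairs that would pass was not computed, so these counts are no result about the members. The permutations treat the 11 pools as exchangeable, although the pools titled B2 deviated alike from their state means (r = 0.754 over 6398 genes). The r over the pools with an A title leaves both of those out. NPM2 and CHAF1A were the closest, with an r of 0.956 (permutation p = 5e-05, adjusted 0.00112) and a rho of 0.873 (permutation p = 0.00099, adjusted 0.0172). That r was also 0.956 with the state means removed, 0.899 without the pair of pools farthest from the median of NPM2 and 0.940 over the 6 pools with an A title; no r is given over the 5 pools with a B title, which are fewer than 6. In those, NPM2 at 15.2, 16.1, 36.6, 39.3 and 56.7 CPM stood beside CHAF1A at 82.7, 86.2, 150, 138 and 255 CPM. Both CAF-1 subunits went together as well, with an r of 0.835 (permutation p = 0.00099, adjusted 0.00891) and a rho of 0.855 (permutation p = 0.00153, adjusted 0.0172), and an r of 0.763 without the pair farthest in CHAF1A and 0.693 over the A pools.

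ASF1A ran opposite to NPM2 and CHAF1A. NPM2 and ASF1A had an r of -0.846 (permutation p = 0.00091, adjusted 0.00891) and a rho of -0.827 (permutation p = 0.00271, adjusted 0.0244), with an r of -0.819 without the pair farthest in NPM2 and -0.748 over the A pools. ASF1A and CHAF1A had an r of -0.855 (permutation p = 0.00077, adjusted 0.00891) and a rho of -0.818 (permutation p = 0.00333, adjusted 0.0250), with an r of -0.694 without the pair farthest in ASF1A and -0.796 over the A pools. For ASF1A and CHAF1B the r was -0.794 (permutation p = 0.00229, adjusted 0.0147), but the rho of -0.755 (permutation p = 0.0101, adjusted 0.0652) did not pass, and the r over the A pools was -0.362. The number of genes with at least 1 count, from 14207 to 19245 per pool, followed CHAF1A with an r of 0.905 (permutation p = 4e-05, adjusted 0.00112) and a rho of 0.936 (permutation p = 0.00011, adjusted 0.00495), and an r of 0.845 without the pair farthest in genes detected and 0.938 over the A pools. For NPM2 that r was 0.831 (permutation p = 0.00149, adjusted 0.0112) and the rho 0.864 (permutation p = 0.00123, adjusted 0.0172), with an r of 0.773 and 0.807 in the same subsets. The share of counts in RN18S, a ribosomal RNA gene, also differed between pools: it was highest (1.30%) in normal pool B2, which had the highest NPM2 and CHAF1A and the lowest ASF1A, and lowest (0.175%) in normal pool A3, which had the lowest NPM2 and CHAF1A. The part of these library properties in the relations between members was not tested. H1FOO went with none of the other 8 genes past the adjusted threshold, and with genes detected it had an r of 0.160 (permutation p = 0.636, adjusted 0.715) and a rho of 0.264 (permutation p = 0.434, adjusted 0.579).

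**Figure D2:**
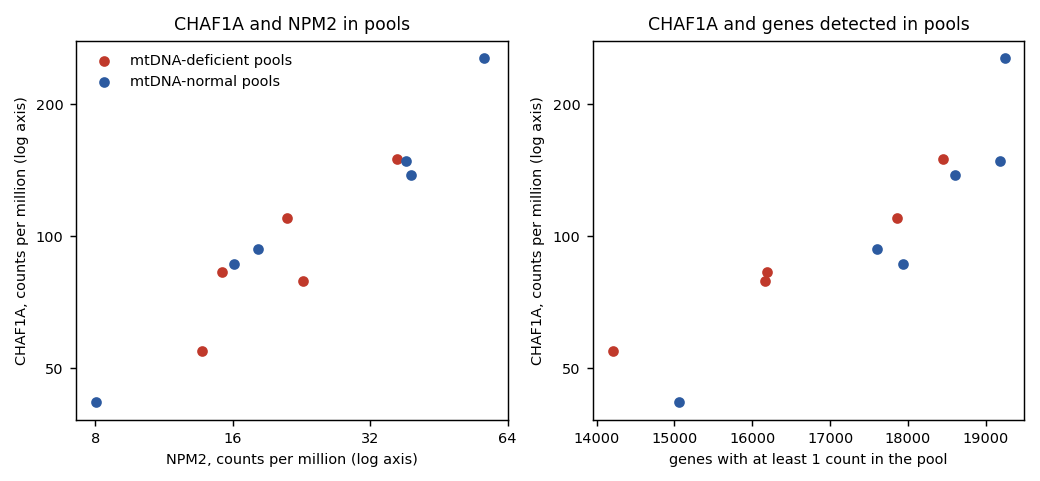
CHAF1A level (CPM, log axis) in each of 11 pools against the NPM2 level (log axis, left) and against the number of genes with at least 1 count (linear axis, right). Red points are deficient and blue points normal pools. Normal pool A3 lies at the low end of CHAF1A and normal pool B2 at the high end in both panels, with the other pools between.

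In single oocytes, mtDNA state again called none of the members. Oocytes with the same first number in the title may share a source, so counts were summed by state and that number, which gave 4 deficient and 3 normal sums. By edgeR 0 of 9 members and 0 of 11964 genes passed (0%), with 231 genes under an unadjusted p of 0.05. DESeq2 called 2 genes, and a fit that blocked on the title number called 2, with no member among either. The median log2 difference was 0.22 over the members and -0.0018 over all genes, and every adjusted p of a member was 1. The difference between the state effects in pools and in single oocytes was tested as an interaction, which called 0 of 17643 genes (0%) and 0 of 9 members. Under an unadjusted p of 0.05 there were 939 genes, and DESeq2 called 1. The lowest adjusted p of a member was 0.945, for NPM3 at -0.60 (SE 0.54) on the log2 scale.

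**Figure D3:**
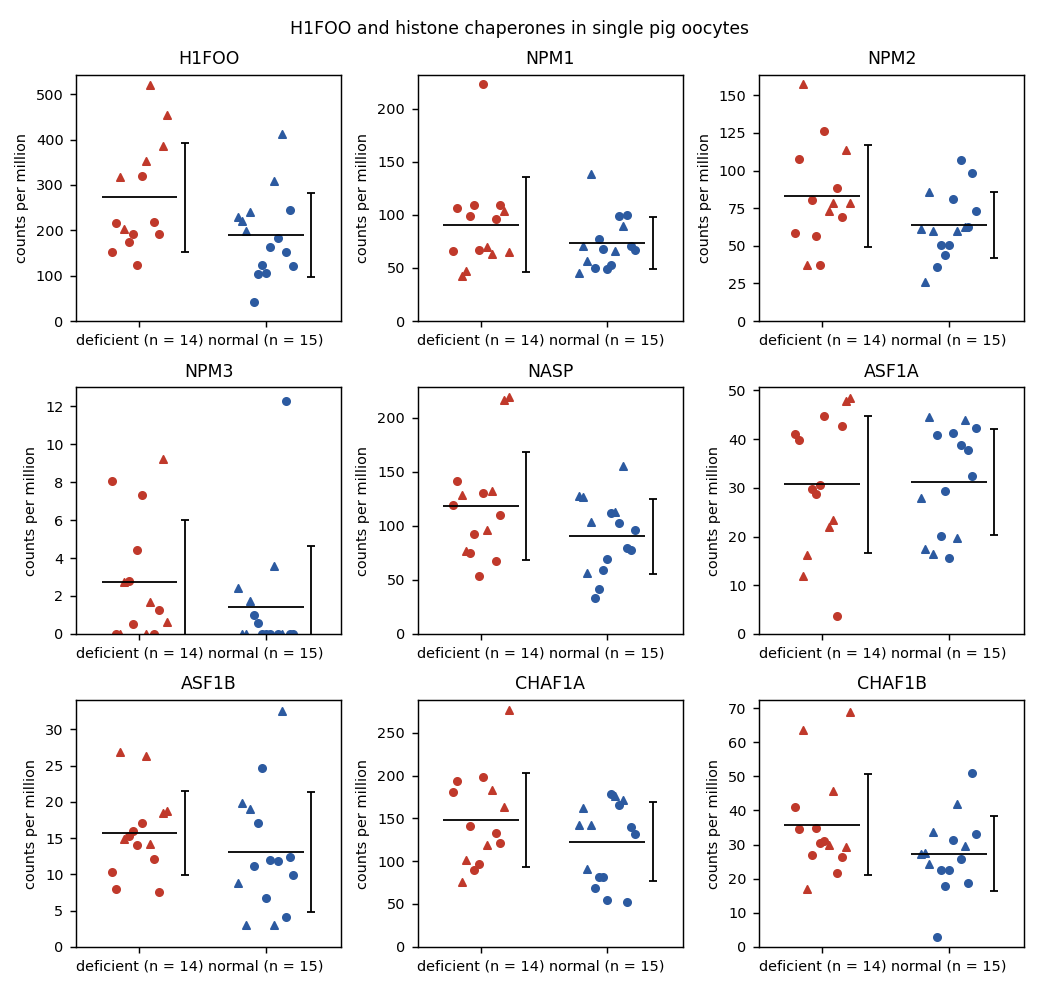
Level of each gene in every single oocyte, in CPM on a linear axis from 0, for 14 deficient (red) and 15 normal (blue) oocytes. Circles are oocytes dated 17 September and triangles those dated 22 September in the column names, horizontal lines are means and bars are 1 SD. The states overlap for all 9 genes, and 13 oocytes lie at 0 for NPM3.

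H1FOO ran from 124 through a median of 217 to 519 CPM in 14 deficient oocytes, and from 41.4 through 183 to 412 CPM in 15 normal oocytes. Only 2 deficient oocytes lay above the highest normal oocyte. The log2 difference over sums was 0.32 (SE 0.27, adjusted p = 1 by edgeR). Summed by title number, the H1FOO level of deficient beside normal oocytes was 249 beside 223 CPM for number 2, 159 beside 84.1 CPM for number 3 and 367 beside 215 CPM for number 4, while number 1 held deficient oocytes alone, at 185 CPM. The deficient sum was the higher in each of these 3 pairs, as it also was for NPM2, NPM3, ASF1B and CHAF1B. The share of all genes with a higher deficient sum in each pair was not computed, so this is no result about the members. Plain CPM carries the LOC102158401 share, at medians of 59.9% in deficient and 64.1% in normal oocytes. The part of that share in these differences was not tested. With the title number as a block the H1FOO difference was 0.46 (SE 0.17, adjusted p = 0.9995 by edgeR), which did not pass. Number 4 mixes the dates unequally, with 4 of 7 deficient and 2 of 7 normal oocytes from 22 September. Taking each oocyte as a sample, the H1FOO difference was 0.33 (SE 0.17, adjusted p = 0.833 by edgeR) within 17 September and 0.26 (SE 0.18, adjusted p = 0.830) within 22 September. Those fits treat oocytes of one title number as replicates, so their SE may be too small. NASP stood at 119 ± 49.8 CPM (SD, n = 14) in deficient and 90.2 ± 34.6 CPM (SD, n = 15) in normal oocytes, with a log2 difference of 0.22 (SE 0.24).

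NPM2 ran from 37.3 through 78.5 to 157 CPM in deficient and from 25.9 through 61.5 to 107 CPM in normal oocytes, at a log2 difference of 0.24 (SE 0.23). NPM1 ran from 42.8 through 83.0 to 223 CPM and from 45.5 through 68.3 to 138 CPM, and its log2 difference of -0.04 (SE 0.21) over sums was 0.34 (SE 0.19) within 17 September and -0.45 (SE 0.26) within 22 September, taking each oocyte as a sample. Neither value passed in those fits, which treat oocytes of one title number as replicates. The difference between the dates was not tested. NPM3 was close to the limit of detection: 16 of 29 oocytes had any count, none had more than 15, and the log2 difference of 0.96 (SE 0.80, 95% interval -0.72 to 2.65) carried the widest interval of the members.

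ASF1A and ASF1B had log2 differences of -0.25 (SE 0.27) and 0.05 (SE 0.39) between states in single oocytes. ASF1A ranged from 3.62 to 48.4 CPM in deficient and from 15.6 to 44.5 CPM in normal oocytes. CHAF1A, at 148 ± 54.8 CPM (SD, n = 14) and 123 ± 45.9 CPM (SD, n = 15), had a log2 difference of 0.06 (SE 0.22), and CHAF1B, at 35.9 ± 14.8 and 27.3 ± 10.97 CPM, one of 0.37 (SE 0.26). The deficient means of CHAF1A and CHAF1B were above the normal means in oocytes and below them in pools. For CHAF1A the interaction of state and library type was -0.28 (SE 0.44, adjusted p = 0.988 by edgeR), and for CHAF1B -0.49 (SE 0.49, adjusted p = 0.959).

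Single oocytes were also compared by the date that the column names carry, and H1FOO was the member called. The names give 17 September for 8 deficient and 9 normal oocytes and 22 September for 6 of each, and do not say which step was done on that day. H1FOO was at a median of 162 CPM on 17 September (41.4 to 319, n = 17) and 313 CPM on 22 September (199 to 519, n = 12), and 5 oocytes of the later date lay above every oocyte of the earlier one. With counts summed by state, title number and date (9 sums) and state as a covariate, the log2 difference, 22 minus 17 September, was 0.86 (SE 0.17, 95% interval 0.52 to 1.21, adjusted p = 0.0253 by edgeR). H1FOO was the only one of the 9 members called, against 45 of 11850 genes (0.38%, 27 higher and 18 lower on 22 September, with 1308 under an unadjusted p of 0.05), and it was 19th by p. DESeq2 called 190 genes, H1FOO among them. Since the list was drawn up with results of these data known, the place of H1FOO is a description.

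**Figure D4:**
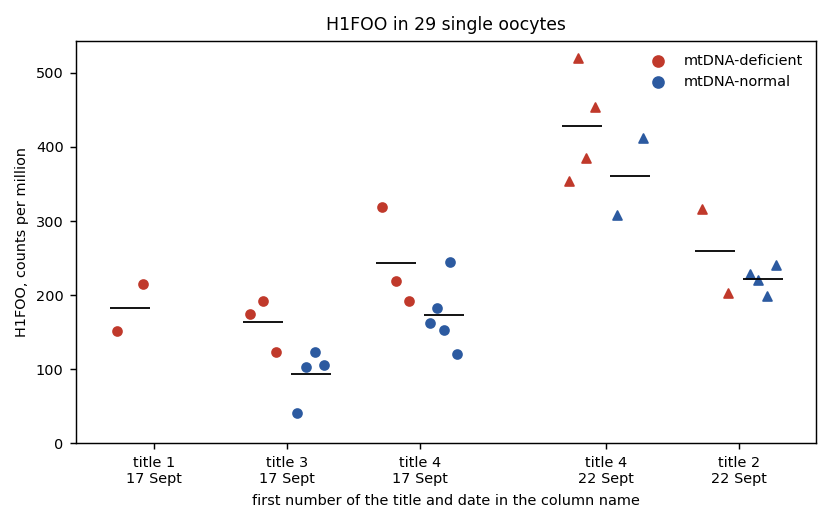
H1FOO level (CPM, linear axis from 0) in each of 29 single oocytes, by the first number of the title and the date in the column name. Red is deficient and blue normal, circles are 17 September and triangles 22 September, and horizontal lines are means of the oocytes shown. Title number 4 occurs on both dates, and its oocytes of 22 September all lie above those of 17 September of the same state.

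Title number and date overlapped in part: 17 September held numbers 1, 3 and 4, and 22 September numbers 2 and 4. Within number 4, deficient oocytes were at 354, 519, 385 and 454 CPM of H1FOO on 22 September and at 319, 219 and 192 CPM on 17 September. Normal oocytes of that number were at 309 and 412 CPM on the later date and at 162, 183, 153, 245 and 121 CPM on the earlier one. The dates did not overlap for H1FOO in either state of number 4. In the normal oocytes of number 4 they did not overlap either for NASP, higher on the later date, or for NPM2, lower on it. The share of all genes without overlap in groups this small was not computed. Over the oocytes of number 4 alone the H1FOO log2 difference was 0.87. That comparison was chosen after the data were seen and its oocytes may share a source, so no p is given for it. With the title number as a covariate over the 9 sums, also chosen after the data were seen, the H1FOO difference was 0.74 (SE 0.21). Only number 4 occurs on both dates, so that fit also takes its date difference from number 4 alone. It is no separate support, and no p is given for it either.

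The H1FOO call was close to the threshold in the 9 sums. It ended without the deficient sum of number 1 (adjusted p = 0.0518), of number 3 (0.0729) or of number 4 dated 22 September (0.0784), and without the normal sum of number 3 (0.0820) or of number 4 dated 22 September (0.0874), while the log2 difference stayed between 0.76 and 0.85 in these 5 fits. Within a date, H1FOO was lower in libraries where LOC102158401 took a larger share, with an r of -0.927 over 17 oocytes of 17 September and -0.717 over 12 of 22 September, which share a denominator with it. That share was alike on the dates, at medians of 62.2% and 61.6%, and RN18S took medians of 2.83% and 3.89%. In CPM computed outside those rows, H1FOO was at 465.5 ± 121 (SD, n = 17) on 17 September and 881 ± 212 (SD, n = 12) on 22 September, with the ranges 189 to 690 and 643 to 1271 meeting only at their edges. The summed level of the 15 oocyte markers had a median of 2705 CPM (1700 to 3497) on 17 September. On 22 September it was 3550 CPM (1868 to 6193), so the ranges overlapped. Of 13 oocyte markers tested by date, 8 were above 0 and 5 below, and 0 were called. The smallest p among them was that of BMP15, a growth factor secreted by oocytes, at 0.62 (SE 0.15, adjusted p = 0.0694 by edgeR). Summed cumulus and granulosa markers had medians of 25.7 and 28.9 CPM. The part of RNA content or of the other oocyte transcripts in the H1FOO difference was not tested.

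None of the 8 chaperones passed between the dates. NASP was nearest in the direction of H1FOO: it ran from 33.6 through 79.5 to 141 CPM on 17 September and from 56.6 through 127 to 219 CPM on 22 September, a log2 difference of 0.47 (SE 0.18, adjusted p = 0.322 by edgeR). With each oocyte as a sample NASP did pass, at 0.50 (SE 0.14, adjusted p = 0.0258 by edgeR). That fit treats oocytes of one title number as replicates, and it called 333 of 7683 genes (4.33%). NPM1 and ASF1A lay on the other side, at -0.49 (SE 0.21, adjusted p = 0.387) and -0.51 (SE 0.22, adjusted p = 0.405). NPM2 had a log2 difference of -0.01 (SE 0.20), CHAF1A of 0.14 (SE 0.19), ASF1B of 0.28 (SE 0.34), CHAF1B of 0.37 (SE 0.23) and NPM3 of -0.25 (SE 0.75).

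Across the 29 oocytes the r of H1FOO on the log scale was 0.795 with NASP, 0.730 with CHAF1B, 0.615 with CHAF1A and 0.496 with NPM2, and the rho was 0.735, 0.538, 0.566 and 0.477. Within 17 September the r was 0.812 with NPM2, 0.782 with CHAF1B, 0.754 with NASP, 0.722 with NPM1 and 0.622 with CHAF1A. Within 22 September it was 0.698 with NASP, 0.639 with CHAF1B, 0.566 with CHAF1A, 0.460 with NPM2 and 0.218 with NPM1, so the order of these genes differed between the dates. NPM2 and CHAF1A, so close in pools, had an r of 0.322 over all oocytes, 0.741 on 17 September and -0.227 on 22 September. These are descriptions, since the oocytes share library kits and the levels all carry the LOC102158401 share, with which NASP had an r of -0.767 and CHAF1B one of -0.677. Among 4423 genes with a mean of at least 10 CPM in both tables, the gene most like H1FOO by the lower of its correlations over 11 pools and 29 oocytes was ACCSL (r = 0.731 and 0.833), followed by LARP1 (0.746 and 0.692), ADPGK (0.683 and 0.664), ETFA (0.651 and 0.646) and ADCK3 (0.631 and 0.651). For NPM2 the closest were LOC100520094 (0.913 and 0.751), LAPTM4B (0.902 and 0.727), CHMP3 (0.725 and 0.760), SLC25A5 (0.826 and 0.724) and PRPS1 (0.800 and 0.715).

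Most members differed between pools and single oocytes, and not in the same direction. With 11 pools and the 7 sums in one edgeR fit that kept state as a covariate, 8 of 9 members passed, 6 higher and 2 lower in pools. That share stands beside 11039 of 15977 genes (69.1%), and the median log2 difference, pools minus single oocytes, was 2.42 over the members and -0.03 over all genes. Extraction, amplification kit, pooling and deposited table change together between the library types and cannot be told apart. Another scaling moved the median of all genes to -0.47 and the split of calls from 5433 higher and 5606 lower to 4459 and 6648, with the direction of the 8 called members the same. Plain CPM of an oocyte is lowered by the LOC102158401 share, so levels were also taken in CPM outside LOC102158401 and RN18S. On that scale NPM1, ASF1A and NPM2 did not overlap between the library types, and the other 6 members did. The share of all genes without overlap was not computed, so this is no result about the members.

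**Figure D5:**
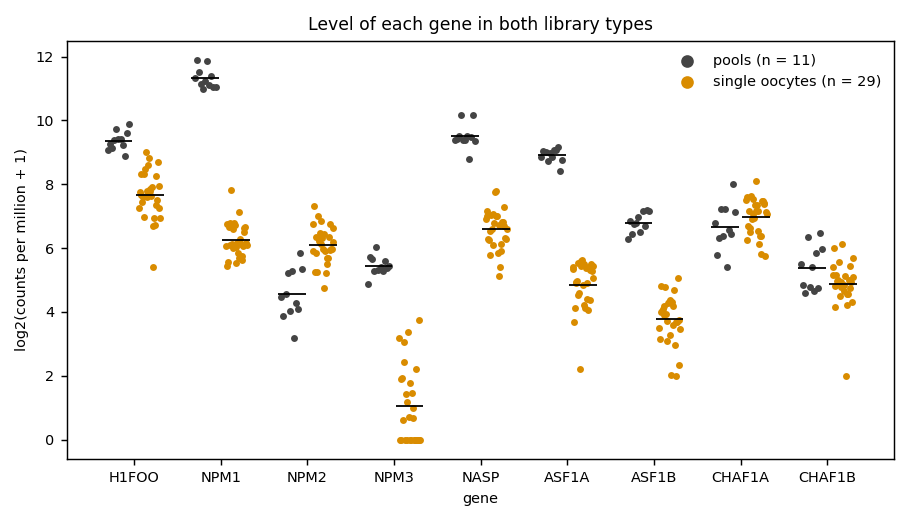
Level of each gene as log2(CPM + 1) in 11 pools (grey) and 29 single oocytes (orange), where points are libraries and horizontal lines are means. NPM1, NPM3, NASP, ASF1A and ASF1B do not overlap between the library types on this scale, which includes LOC102158401, and outside that row and RN18S only NPM1 and ASF1A of these 5 stay apart. The share of all genes without overlap was not computed.

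NPM1 had the largest difference of the members, at 4.67 (SE 0.27, adjusted p = 2.37e-13), with 2047 to 3829 CPM in pools and 42.8 to 223 CPM in oocytes. By count within a library, uncorrected for gene length, its median place was 27 in pools and 1051 in oocytes. NPM3 was higher in pools by 4.01 (SE 0.30) on the log2 scale, whereas NPM2 was lower, at -2.01 (SE 0.25, adjusted p = 1.76e-07). NPM2 ran from 8.02 through 21.1 to 56.7 CPM in pools and from 25.9 through 69.0 to 157 CPM in oocytes, and its median place was 4782 and 1160. Outside LOC102158401 and RN18S, NPM2 ran from 8.04 to 57.5 CPM in pools and from 83.9 to 443 CPM in oocytes. NPM2 was thus the one nucleoplasmin gene called lower in pools.

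The H3-H4 chaperones split in a similar way. ASF1A was higher in pools by 3.53 (SE 0.22), with 341 to 580 CPM against 3.62 to 48.4 CPM, and ASF1B by 2.42 (SE 0.21), with 76.5 to 146 CPM against 3.00 to 32.5 CPM. NASP was higher in pools by 2.46 (SE 0.20), with 442 to 1154 CPM against 33.6 to 219 CPM, and means of 755 and 289 CPM outside LOC102158401 and RN18S. Of the CAF-1 subunits, CHAF1A was lower in pools at -0.78 (SE 0.22, adjusted p = 0.00267 by edgeR), which was no longer called over normal libraries alone (-0.52, SE 0.34, adjusted p = 0.208). CHAF1B showed a difference of -0.0029 (SE 0.25, 95% interval -0.51 to 0.50), with 22.99 to 87.1 CPM in pools and 2.93 to 69.0 CPM in oocytes. Outside LOC102158401 and RN18S the CHAF1B means were 45.6 and 87.6 CPM.

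H1FOO was higher in pools by 1.22 (SE 0.19, 95% interval 0.82 to 1.61, adjusted p = 4.54e-06), with 476 through 676 to 954 CPM against 41.4 through 203 to 519 CPM. In CPM outside LOC102158401 and RN18S the gap was small: H1FOO was at 677 ± 143 (SD, n = 11) in pools and 637 ± 263 (SD, n = 29) in oocytes, with the pools inside the range of the oocytes, 189 to 1271. The size of the H1FOO difference therefore depended on the scaling. Its place by count was alike, with medians of 259 in pools and 231 in oocytes. The H1FOO difference was 0.78 (adjusted p = 0.0011) under relative log expression scaling, where the median of all genes was -0.47. The coefficient of variation of H1FOO was 0.210 over pools and 0.491 over oocytes of both dates. Within 17 and 22 September it was 0.386 and 0.332 in plain CPM. Outside LOC102158401 and RN18S it was 0.212 over pools, 0.413 over oocytes of both dates, and 0.259 and 0.241 over oocytes of 17 and 22 September.

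Other genes that work with the members gave no call for mtDNA state, for its interaction with library type or for date. Of 16 listed partners of the HIRA and CAF-1 routes 14 had a row, and 0 of 11, 0 of 12, 0 of 14 and 0 of 13 tested passed for pooled state, single state, interaction and date. PCNA, the sliding clamp that CAF-1 binds at forks, had the highest mean of this list in pools and in oocytes (1661 ± 397 CPM, SD, n = 11, and 184 ± 66.1 CPM, SD, n = 29). The smallest p in pools was that of SPTY2D1, an H3-H4 chaperone, at 1.70 (SE 0.40, adjusted p = 0.576 by edgeR). SPTY2D1 also had the smallest p by date, at 1.77 (SE 0.57, adjusted p = 0.198). For single state it was CABIN1, a HIRA complex subunit, at 0.80 (SE 0.49, adjusted p = 1), and for the interaction HAT1, a histone acetyltransferase, at 0.54 (SE 0.32, adjusted p = 0.915).

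Of 29 genes listed as other histone chaperones 26 had a row and 23 to 25 were tested, with no call in these 4 comparisons. The list was drawn broadly, and NPLOC4 and AATF in it are not histone chaperones. CHD1, a remodeller that slides nucleosomes, had the highest mean in pools (509 ± 190 CPM, SD, n = 11) and SUPT6H, an H3-H4 chaperone of transcribed genes, in oocytes (162 ± 60.0 CPM, SD, n = 29). The smallest p belonged to OIP5 in pools (2.21, SE 0.93, adjusted p = 0.903 by edgeR) and in the interaction (3.35, SE 1.64, adjusted p = 0.904), to AATF in single oocytes (0.45, SE 0.21, adjusted p = 1) and to ATRX by date (-1.34, SE 0.47, adjusted p = 0.248). ATRX works with DAXX to place H3.3. Of 33 names of linker histones and histone variants 5 had a row, none of them a linker histone, so H1FOO could not be set beside somatic H1 genes here. H3F3B, which encodes H3.3, had the highest mean of the 5 in pools and oocytes (181 ± 36.5 CPM, SD, n = 11, and 74.5 ± 28.7 CPM, SD, n = 29), and its log2 difference by state was 0.13 (SE 0.19) in pools and 0.03 (SE 0.21) in single oocytes. None of the 5 passed for state, interaction or date. Their smallest p was that of H2AFY in pools (-0.44, SE 0.37, adjusted p = 0.922 by edgeR) and by date (-0.53, SE 0.27, adjusted p = 0.488), and of H2AFZ in single oocytes (-1.22, SE 0.58, adjusted p = 1) and the interaction (1.05, SE 0.59, adjusted p = 0.904).

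Of 13 genes of histone mRNA processing 9 had a row, and none passed for state, interaction or date. LSM11, a subunit of the U7 particle, had the highest mean (638 ± 218 CPM, SD, n = 11, in pools and 184 ± 46.2 CPM, SD, n = 29, in oocytes). The smallest p was that of ZNF473 in pools (-0.76, SE 0.35, adjusted p = 0.921 by edgeR) and in single oocytes (-0.77, SE 0.59, adjusted p = 1), and that of SLBP, the stem-loop binding protein of histone mRNA, by date (0.29, SE 0.18, adjusted p = 0.591). For the interaction it was ERI1, an exonuclease that trims histone mRNA (0.73, SE 0.41, adjusted p = 0.904). The S-phase list, which holds genes of replicating cells, had 10 of 12 rows, with 0 of 8, 0 of 9, 0 of 9 and 0 of 9 called in these comparisons. Neither the oocyte nor the cumulus and granulosa markers had a call in them.

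Between library types most tested genes of each of these lists were called, as were most genes. The HIRA and CAF-1 partners had 10 of 13 called, 6 higher in pools (PCNA, TLK2, HAT1, UBN2, RBBP4 and RBBP7) and 4 lower (MCM2, CABIN1, TONSL and IPO4). PCNA was higher by 2.80 (SE 0.18) and RBBP4, which CAF-1 shares with other complexes, by 0.97 (SE 0.18). The list of other chaperones had 17 of 25 called, 15 higher in pools, among them ATRX at 4.26 (SE 0.47), RSF1 at 3.13 (SE 0.34) and CHD1 at 3.01 (SE 0.30). Also higher were YEATS4, NAP1L1, NAP1L2, NAP1L3, TSPYL1, TSPYL2, ANP32A, ANP32B, SET, SSRP1 and SUPT16H. The listed genes called lower were NPLOC4 (-3.32, SE 0.34) and AATF (-1.01, SE 0.26), which are not histone chaperones. All 5 histone variants were called, with CENPA, H2AFZ, H3F3A and H3F3B higher and H2AFY lower. Histone mRNA processing had 7 of 9 called: CASP8AP2, ERI1, NPAT, LSM11, CPSF3 and ZNF473 were higher and SLBP was lower, at -2.08 (SE 0.16). The S-phase genes had 9 of 9 called, 3 higher and 6 lower, the oocyte markers 12 of 14, 7 higher and 5 lower, and the cumulus and granulosa markers 5 of 6, 2 higher and 3 lower.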

How the data were processed

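The deposited values were whole-number counts per gene in 2 tables, 1 for 11 pools and 1 for 29 single oocytes, with no normalization by the authors. The submitters' processing notes name TopHat2 2.0.14, edgeR, Trim Galore and FastQC, and the build Sscrofa10.2. Reads were 100 bp, paired end, per the labels' protocols. For the counting program and its strand setting nothing is given in the sources used here. A row with no gene name held 1.05% to 4.75% of a pool's counts and 0.648% to 8.15% of an oocyte's, and was left out.

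The members and lists were chosen with earlier results of these data known. Counts of all genes were fitted in edgeR 4.0.16 (R 4.3.3) with filterByExpr, TMM scaling and the quasi-likelihood test, and p-values were adjusted by Benjamini-Hochberg over all genes tested, at a threshold of 0.05. Single oocytes were summed by state and first title number, and for the date fit also by date. Alternatives were DESeq2 1.42.0, relative log expression scaling, no filter, counts without LOC102158401 and RN18S, each replicate left out, a replicate block, a title letter or number as a covariate, each oocyte as a sample, each date alone and normal libraries alone. The number covariate, the number 4 oocytes alone, the unblocked 8 pools and the omission of both B2 pools were chosen after the data were seen. The fits were tested on simulated counts.

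Deviations of same-numbered sums in the 2 states correlated at 0.237, 0.327 and 0.287 over 5722 genes, so the title numbers were taken to pair the single-oocyte sums. For numbers 2 and 3 all oocytes of both states carry the same date, so a shared number and a shared date cannot be told apart there. The source of the pairing is these data, as the labels do not explain the numbers. Every pair of libraries in a group differed by more than sampling noise, with a chi-square per degree of freedom of at least 35.0 for pools and 4.09 for oocytes. Correlations used log2 CPM with a prior count of 1. For pools 100000 permutations were drawn with NumPy, and the ranks and the adjustment came from SciPy 1.17.1. Every member with a row was named, and from each list the gene of highest mean CPM in each table, any that passed, and otherwise that of smallest p. One gene of these lists is counted but not reported here by name. For H1FOO and NPM2, the 5 genes most alike were named. Symbols were used as the tables give them, and names of overlapping genes came from RefSeq's table for Sscrofa11.1, where all 9 members matched, with no coordinates used. No sequences of the members were used here. Depth is the total count per library, and errors were taken from the spread between libraries.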

Additional observations from a re-analysis of the deposited data

Results flagged for a closer look

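In 54 groups searched (9 genes in pools by state and in oocytes by state and date), 6 held a value whose gap to its nearest neighbour was wide for the group's range, by Dixon's 95% criterion. Chance gives about 1 in 20 groups. NASP was at 1149 CPM in deficient pool B2, next to 727 CPM in the nearest deficient pool, and the normal pool with the same title, at 1154 CPM, was also the highest of its state. NPM1 was at 3752 CPM in normal pool A3, next to 2709 CPM.

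In single oocytes, NPM1 was at 223 CPM in deficient oocyte 4-1-S17 of 17 September, next to 109 CPM. NPM3 was at 9.23 CPM in deficient oocyte 4-4-S25 of 22 September, next to 2.71 CPM, and at 12.3 CPM in normal oocyte 4-3-S3 of 17 September, next to 0.978 CPM, in a gene with at most 15 counts in any oocyte. ASF1A was at 3.62 CPM in deficient oocyte 4-3-S19 of 17 September, next to 28.8 CPM.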

How the results depend on the processing

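Of 551 alternative values of the 9 members, 512 kept the direction and the side of the threshold, 32 turned direction, 6 lost a call and 1 gained one. No member was called for state or interaction in any alternative. The number of genes called was 28 for pooled state with DESeq2. For single state it was 2 with DESeq2, 4 with no filter, 2 with the replicate block, 1 with each oocyte as a sample, with or without date as a covariate, and 2 within 17 September. For the interaction it was 1 with DESeq2, 6 with no filter and 3 with each oocyte as a sample. For date it was 190 with DESeq2, 237 with no filter, 333 with each oocyte as a sample, 241 with the title number as a covariate, 283 in number 4 alone and 12 to 58 when each sum was left out in turn. Members called by date were 0 to 1 when each sum was left out and 2 with each oocyte as a sample. In the latter fit 4.33% of all genes tested were called. H1FOO by date ran from 0.76 to 0.94 when each sum was left out.

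In pools H1FOO was -0.046 with the replicate block and -0.035 in the same 8 pools unblocked. Leaving out each pool in turn gave -0.048 to 0.14 for H1FOO, -0.041 to 0.51 for NPM1, -0.43 to 0.0074 for NPM2, -0.41 to 0.018 for CHAF1A and -0.48 to 0.025 for CHAF1B. In single oocytes the paired fit, with the replicate block, gave -0.063 for CHAF1A. NPM1 was 0.042 with each oocyte as a sample, 0.023 with date added and 0.34 within 17 September, NPM2 was -0.021 and ASF1B -0.22 within 17 September, and CHAF1A was -0.18 within 22 September. Leaving out each sum gave -0.13 to 0.094 for NPM1, -0.20 to 0.34 for ASF1B and -0.088 to 0.18 for CHAF1A, and by date -0.23 to 0.12 for NPM2. The NASP interaction was -0.051 with no filter and -0.00041 without LOC102158401 and RN18S. By library type CHAF1B was 0.07 with no filter and 0.37 over normal libraries alone, where CHAF1A lost its call (-0.52). The cause of these turns was not tested.

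Title numbers shared by pools did not pair them as a set: deviations correlated at -0.269 for A2, 0.332 for A3, 0.754 for B2 and 0.183 for B4, and 4 of 8 pools correlated best with their own number. The B2 value lay above the highest of the other pairs, 0.585, so the pools titled B2 may not be independent. The block called 0 genes in pools. NPM3 had no value where each oocyte was a sample, since its counts fell under the filter, and counts as low as its own, 0 to 15 per oocyte, limit what could be seen.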
